A study of Mus musculus with 12 samples.

Results

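Lipid droplet proteins and lipases were followed in liver RNA through 10 genes: Cidea, Cideb and Cidec of the CIDE family, the perilipins Plin2, Plin3, Plin4 and Plin5, the lipases Pnpla2 and Mgll, and G0s2, an inhibitor of Pnpla2. The genes were chosen by symbol with earlier results of these data known, so shares of all tested genes beside their counts test no excess. Each was found once among the 18560 genes of the deposited table. All 10 passed the filter on low values (at least 1 FPKM in at least 3 of the 12 libraries), which left 11514 genes for testing. Cidea passed it through male libraries alone, namely the 3 of knockout males and 2 of wild-type males. For Cidec the female libraries alone would not have been enough to pass. There were 3 libraries in each of 4 groups: OXR1A-/- males (KO males), wild-type males (WT males), OXR1A-/- females (KO females) and wild-type females (WT females). All mice were 12 months old, and the labels name no treatment, strain, deleted exon or tissue-restricted deletion. OXR1A is an isoform made from Oxr1, a gene known to protect cells from oxidative damage, and the series title points to fatty liver in males.

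A lipid droplet is a store of triglyceride and cholesteryl ester enclosed by a phospholipid monolayer that carries proteins. Perilipins coat that surface and govern the access of lipases, and CIDE proteins act at contacts between droplets, where Cidea and Cidec pass lipid into the larger droplet and Cideb also takes part in the lipidation of very low density lipoprotein. Pnpla2 (adipose triglyceride lipase, ATGL) starts the breakdown of triglyceride, G0s2 binds and inhibits it, and Mgll cleaves the last fatty acid from monoglyceride. In mouse liver Cideb and Plin2 are the usual droplet proteins of the hepatocyte, while Cidea and Cidec are best known from fat cells and from fatty liver.

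Levels are in FPKM, which scales fragments by transcript length and by all mapped fragments, so levels can be set side by side between genes. The sources used here give no read totals, and no counting interval was made. Library sums ran from 526203 to 667434 FPKM. The hepatocyte marker Alb (albumin) stood at 31720 to 45904 FPKM in the 12 libraries, and all 7 hepatocyte markers passed the filter. Oxr1 was at 23.4 ± 1.48 FPKM in KO males and 17.9 ± 5.61 in WT males, and at 20.2 ± 0.642 in KO females and 18.5 ± 1.85 in WT females (SD, n = 3 each). These values cover the whole gene and do not check the loss of the OXR1A isoform. RNA typical of the opposite sex appeared at a trace in 3 libraries, called the trace libraries here. Xist, made from the inactive X chromosome, was at 0.82 FPKM in KO male 3, against 0.04 to 0.08 in the other males. The Y-linked gene Eif2s3y was at 0.85 in KO female 1 and 1.89 in WT female 1, against 0 to 0.10 in the other females. WT male 2 held fewer long transcripts than the rest: its log2 deviations had a slope of -0.251 on log2 transcript length, where the other 11 libraries had slopes of -0.121 to 0.155.

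KO male livers held more Cidea, Cidec and Mgll RNA than WT male livers. Cidea rose 16.3-fold, Cidec 3.80-fold and Mgll 1.69-fold, as ratios of mean FPKM. Of the 10 genes 3 rose, 0 fell and 7 did not pass the test in males (limma on log2(FPKM + 1), Benjamini-Hochberg adjusted p under 0.05 over all tested genes). Of all tested genes 2.13% were called higher and 0.426% lower in the same comparison. The groups did not overlap in 5 of the 10, all of them higher in KO males, against 21.2% of all tested genes higher without overlap. An unadjusted p under 0.05 was reached by 6 of the 10, against 23.9% of all tested genes. All 10 differences were above 0, as were 78.8% of those of all tested genes. The median log2 difference was 0.71 over the 10 genes and 0.19 over all tested genes. Median-ratio scaling took the median over all tested genes to -0.0014, kept the calls of Cidea (log2 difference 3.18) and Cidec (1.53), and gave 68 genes higher and 77 lower in place of 245 and 49. When the model held the 6 male libraries only, none of the 10 passed (adjusted p = 0.0561 for Cidea, 0.131 for Cidec and 0.136 for Mgll), and without WT male 3 only 1 call, that of Cidea, remained.

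**Figure D1:**
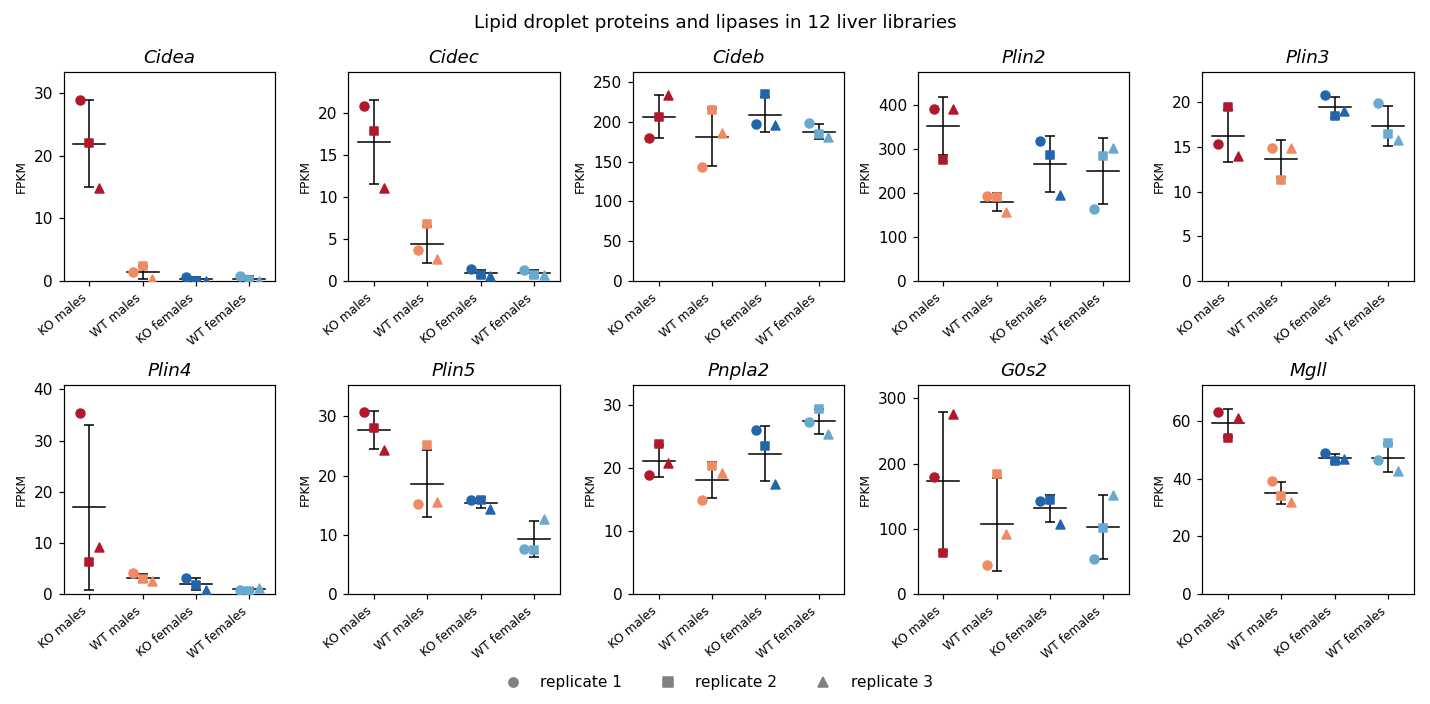
FPKM of the 10 genes in the 12 libraries. Each panel has its own axis from 0, points are libraries with the replicate number as the shape, horizontal lines are group means and bars are SD (cut at 0). Cidea and Cidec lie above every other library in the 3 KO males, while Cideb and Pnpla2 overlap between KO and WT males.

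Cidea (Entrez gene 12683, GRCm38 chromosome 18, 67343564 to 67367794) stood at 28.9, 22.1 and 14.9 FPKM in KO males 1, 2 and 3, against 1.34, 2.39 and 0.32 in WT males 1, 2 and 3. The lowest KO male lay above the highest WT male by a wide margin. In females the gene was listed at 0.67, 0 and 0.03 in KO females 1, 2 and 3 and at 0.82, 0.16 and 0 in WT females 1, 2 and 3. The higher value in each female group came from the library with a trace of Y-linked RNA, and the part of that trace was not tested. In males the log2 difference was 3.34 (SE 0.36, 95% interval 2.56 to 4.13, adjusted p = 0.00172 by limma), and 2 of the 11514 tested genes had a larger one. The call held whichever of the 12 libraries was left out, with log2 differences of 2.98 to 3.66. Over all 21 alternatives the adjusted p ran from 0.00039 to 0.0561, and 20 of them kept the call. The alternative filter at a mean of 5 FPKM adds no support, because Cidea passed it only through KO males. Cidec and Plin4 passed that filter only through KO males as well. Its bounds overlap an antisense gene, B430212C06Rik, and reads of both would be mixed if strand was not used. In KO males Cidea was above 71.9% to 83.2% of the tested genes of the library, in WT males above 0.825% to 33.5%.

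Cidec (Entrez gene 14311, chromosome 6, 113424634 to 113435760, minus strand), which enlarges droplets in fat cells, followed the same order of libraries among KO males. It was listed at 20.7, 17.8 and 10.98 FPKM in KO males 1, 2 and 3, against 3.64, 6.79 and 2.59 in WT males 1, 2 and 3. The groups did not overlap, and WT male 2 was the highest of its group for Cidea as well. The log2 difference was 1.75 (SE 0.30, 95% interval 1.09 to 2.40, adjusted p = 0.0168 by limma). The call was lost without KO male 1 (adjusted p = 0.0536), KO male 2 (0.0636) or WT male 3 (0.0684), with log2 differences of at least 1.498 over the libraries left out.

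RefSeq (GRCm38.p6) gives Cidec a pair of transcription starts. The 250 bases before each are shown because Cidec was a called droplet protein. Those before Plin3, a perilipin that did not pass, stand beside them. Capitals mark any of the searched motifs.
Cidec, chr6:113435761-113436010, minus strand: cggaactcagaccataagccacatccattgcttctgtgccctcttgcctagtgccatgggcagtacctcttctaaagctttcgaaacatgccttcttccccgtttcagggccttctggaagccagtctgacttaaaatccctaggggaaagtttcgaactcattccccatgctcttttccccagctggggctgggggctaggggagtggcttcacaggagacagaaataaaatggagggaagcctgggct
Cidec, chr6:113434765-113435014, minus strand: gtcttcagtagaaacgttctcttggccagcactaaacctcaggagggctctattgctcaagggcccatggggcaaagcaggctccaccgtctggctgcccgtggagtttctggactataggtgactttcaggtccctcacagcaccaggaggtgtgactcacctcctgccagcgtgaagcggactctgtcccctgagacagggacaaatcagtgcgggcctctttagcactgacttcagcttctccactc
Plin3, chr17:56290512-56290761, minus strand: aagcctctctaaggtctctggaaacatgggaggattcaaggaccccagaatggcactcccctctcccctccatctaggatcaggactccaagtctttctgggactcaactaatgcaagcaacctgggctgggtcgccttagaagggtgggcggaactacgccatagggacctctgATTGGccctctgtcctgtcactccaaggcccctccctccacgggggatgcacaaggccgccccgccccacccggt
Each motif was searched on both strands, and its share was counted over 32851 RefSeq windows of the same length. The DR1 element that PPAR receptors bind, written as AGGTCA and AGGTCA again after 1 free base, was in 0.0335% of those windows. A single copy of that repeat, which overlaps any DR1 match, was in 14.02% of them. The STAT5 motif TTCNNNGAA was in 7.02% and the TATA box, written TATAAA, in 12.4% of all windows. The core of the cAMP response element, with the letters TGACG, was in 17.8% of all windows. The E-box CACGTG was present in 6.02% of the windows, and the CCAAT box was present in 33.8% of them. None of these motifs occurred in either Cidec window, and the CCAAT box occurred once before Plin3, on the strand opposite to the printed one, where it reads ATTGG. Cidea was left out of this search, and the other 9 of the 10 genes had an entry. Among the windows not printed, the single AGGTCA copy occurred before Plin2 and Plin5, and the CCAAT box before Plin2, Plin4 and Plin5. The E-box occurred before Mgll, the TATA box before Cideb and the core of the cAMP response element before G0s2. No motif occurred before Pnpla2. The use of these sites was not tested.

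Cideb (Entrez gene 12684, chromosome 14, 55754052 to 55758424) made up most of the CIDE transcripts in every library. It stood at 207 ± 26.8 FPKM in KO males and 181 ± 36.2 in WT males, and at 209 ± 21.9 in KO females and 188 ± 9.03 in WT females (SD, n = 3 each). The groups overlapped in both sexes. The log2 difference was 0.20 in males (95% interval -0.14 to 0.54, adjusted p = 0.439) and 0.15 in females (95% interval -0.19 to 0.49, adjusted p = 0.922). It was -0.044 in males with median-ratio scaling. Cidea and Cidec together took 21.6%, 16.3% and 9.97% of the summed CIDE FPKM in KO males 1, 2 and 3, against 3.37%, 4.09% and 1.54% in WT males 1, 2 and 3. In females the share was 0.298% to 1.03% in KO and 0.375% to 1.07% in WT. These shares are within a library and do not change with its scaling.

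**Figure D2:**
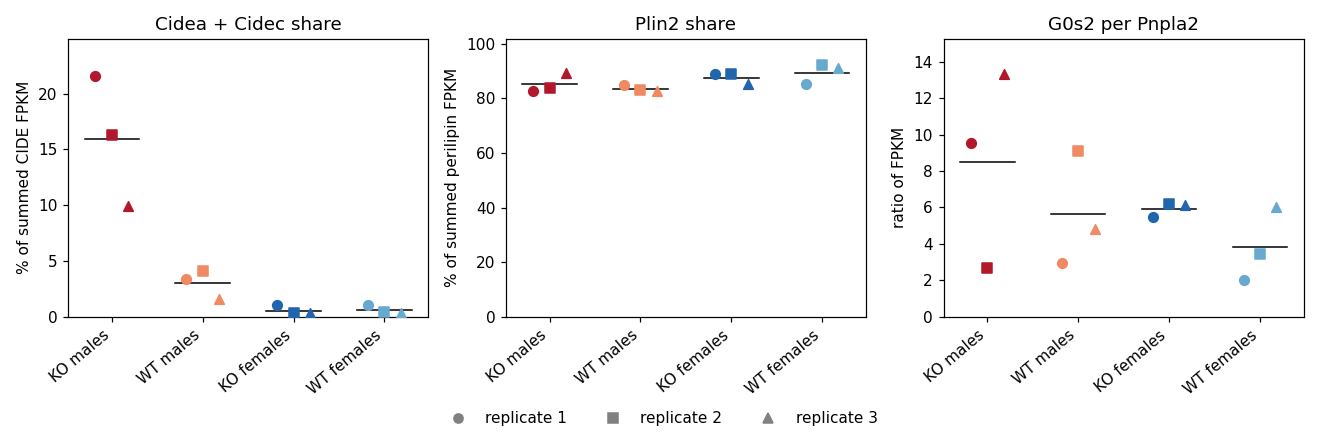
Shares and ratios within each library. The left panel gives Cidea plus Cidec as a percentage of the summed FPKM of the 3 CIDE genes, the middle panel Plin2 as a percentage of the summed perilipin FPKM, and the right panel the FPKM of G0s2 divided by that of Pnpla2. Points are libraries and lines group means. The left share is 9.97% to 21.6% in KO males and at most 4.09% elsewhere, while the G0s2 ratio spreads widely in both male groups.

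Among the perilipins, none passed the test in males, although Plin2 and Plin4 did not overlap between the groups. Plin2 (Entrez gene 11520, chromosome 4, 86626910 to 86670217), the main perilipin of the hepatocyte, was at 390, 275 and 391 FPKM in KO males 1, 2 and 3, against 194, 190 and 156 in WT males 1, 2 and 3. The log2 difference was 0.95 (SE 0.25, 95% interval 0.40 to 1.503, adjusted p = 0.0636), and its adjusted p ran from 0.0501 to 0.282 over the 21 alternatives. Plin2 supplied 82.8% to 89.2% of the perilipin FPKM in KO males and 82.5% to 85.0% in WT males.

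Plin4 (Entrez gene 57435, chromosome 17, 56100587 to 56109948), a perilipin abundant in fat cells, was at 35.4, 6.27 and 9.10 FPKM in KO males 1, 2 and 3, against 4.08, 2.89 and 2.60 in WT males 1, 2 and 3. Its mean in KO males rested largely on KO male 1, and the log2 difference was 1.74 (SE 0.49, adjusted p = 0.0743) with all libraries and 1.05 without KO male 1. Plin5 (Entrez gene 66968, chromosome 17, 56111597 to 56117606), which ties droplets to mitochondria in oxidative tissues, was at 30.7, 28.0 and 24.4 FPKM in KO males 1, 2 and 3, against 15.2, 25.2 and 15.6 in WT males 1, 2 and 3. WT male 2 reached into the range of the KO males, and the log2 difference was 0.58 (SE 0.22, adjusted p = 0.139). Plin3 (Entrez gene 66905, chromosome 17, 56278962 to 56290511), the broadly expressed perilipin that also sits in the cytosol, was at 16.3 ± 2.91 FPKM in KO males and 13.7 ± 2.10 in WT males (SD, n = 3 each), with overlap (log2 difference 0.23, 95% interval -0.10 to 0.56, adjusted p = 0.362).

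Of the lipases and their inhibitor, Mgll alone was called. Mgll (Entrez gene 23945, chromosome 6, 88724412 to 88828360) was at 63.1, 53.9 and 61.1 FPKM in KO males 1, 2 and 3, against 39.3, 33.9 and 31.9 in WT males 1, 2 and 3. Each KO male lay above each WT male, and also above each female library, where Mgll ran from 46.2 to 48.8 in KO and 42.6 to 52.3 in WT. The log2 difference in males was 0.75 (SE 0.12, 95% interval 0.49 to 1.003, adjusted p = 0.0112 by limma). The call was lost without WT male 3 (adjusted p = 0.0575), with median-ratio scaling (0.135), with quantile normalization (0.0689), with the length trend removed (0.0586) and without the 3 trace libraries (0.0735). The log2 difference was 0.51 to 0.83 over the 21 alternatives.

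Pnpla2 (Entrez gene 66853, chromosome 7, 141455188 to 141460743) was at 18.8, 23.7 and 20.7 FPKM in KO males 1, 2 and 3, against 14.8, 20.3 and 19.1 in WT males 1, 2 and 3. The groups overlapped, and the log2 difference was 0.22 (95% interval -0.14 to 0.57, adjusted p = 0.425), or -0.019 with median-ratio scaling. G0s2 (Entrez gene 14373, chromosome 1, 193272160 to 193273188) varied more within groups than between them. It was at 179, 63.3 and 276 FPKM in KO males 1, 2 and 3, against 44.1, 184 and 92.0 in WT males 1, 2 and 3 (log2 difference 0.68, 95% interval -0.58 to 1.94, adjusted p = 0.473). The FPKM ratio of G0s2 to Pnpla2 was 9.54, 2.67 and 13.3 in KO males 1, 2 and 3, against 2.97, 9.09 and 4.81 in WT males 1, 2 and 3, again with overlap. KO male 2, the lowest KO male for G0s2 and Plin2, was second for Cidea and Cidec, so the genes did not rank the KO males alike.

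**Figure D3:**
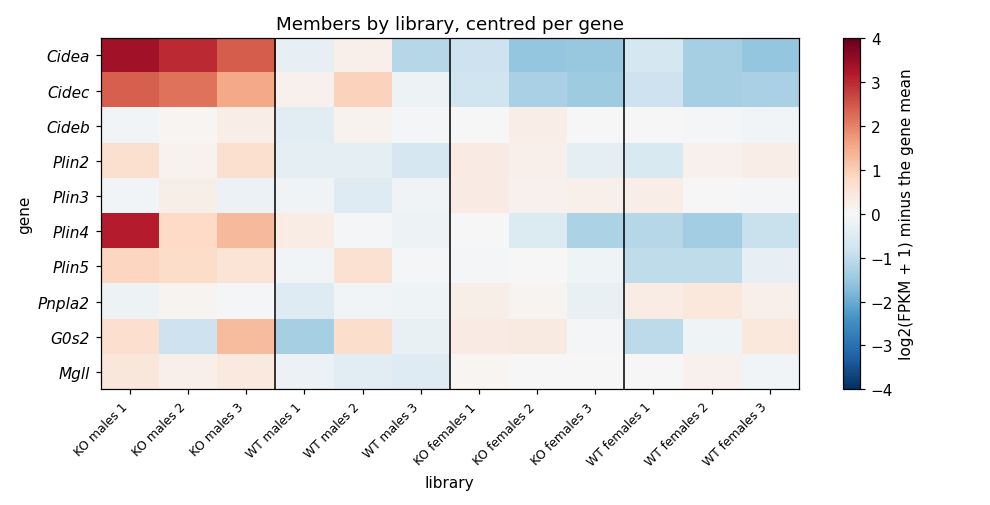
Centred levels of the 10 genes by library. Rows are genes, columns are libraries in 4 blocks, and the colour is log2(FPKM + 1) minus the mean of the gene over the 12 libraries, from -1.56 for the lowest to 3.34 for the highest value. Cidea, Cidec and Plin4 are highest in KO male 1, G0s2 is highest in KO male 3 and below its mean in KO male 2.

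In females the same comparison gave no call. Of the 10 genes 0 were called by limma, against 0.0174% of all tested genes, and 1 had an unadjusted p under 0.05, against 6.13% of them. That gene was Plin5, at 15.9, 15.9 and 14.4 FPKM in KO females 1, 2 and 3, against 7.58, 7.49 and 12.7 in WT females 1, 2 and 3. The groups did not overlap, as in 9.22% of all tested genes that were higher without overlap, and the log2 difference was 0.71 (SE 0.22, 95% interval 0.24 to 1.19, unadjusted p = 0.00648, adjusted p = 0.600). Cidec averaged 0.883 ± 0.444 FPKM in KO females and 0.890 ± 0.381 in WT females, with a log2 difference of -0.012 (95% interval -0.67 to 0.64, adjusted p = 0.999). Its highest value in each female group came from a trace library, 1.39 in KO female 1 and 1.33 in WT female 1. The part of that trace was not tested. Cidea had a log2 difference of -0.099 (95% interval -0.89 to 0.69, adjusted p = 0.977). Mgll stood at 47.2 ± 1.38 FPKM in KO females and 47.1 ± 4.91 in WT females (95% interval of the log2 difference -0.25 to 0.27, adjusted p = 0.995). Plin2 was at 266 ± 63.5 against 250 ± 75.9, and Pnpla2 at 22.2 ± 4.35 against 27.3 ± 1.98 (adjusted p = 0.962 and 0.838; SD, n = 3 each). Plin4 was at 3.12, 1.85 and 0.74 FPKM in KO females 1, 2 and 3, against 0.86, 0.58 and 1.24 in WT females 1, 2 and 3, with overlap (log2 difference 0.54, 95% interval -0.53 to 1.62, adjusted p = 0.904). Plin3 averaged 19.4 ± 1.22 in KO females and 17.4 ± 2.23 in WT females, and G0s2 131 ± 20.9 in KO females and 103 ± 49.2 in WT females, both with overlap (adjusted p = 0.912 and 0.931). For Cidea, Cidec, Plin2 and Mgll the sign of the difference in females changed when single libraries were left out.

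The difference between the effects in males and in females was tested as an interaction. Of the 10 genes 0 were called by limma, against 0.0261% of all tested genes, and 5 had an unadjusted p under 0.05, against 9.03% of them. Cidea came closest, with a log2 difference between the effects of 3.44 (SE 0.51, 95% interval 2.33 to 4.56, unadjusted p = 2.38e-05, adjusted p = 0.0641), and 3 tested genes had a smaller p. Without KO male 3, the library with a trace of Xist, its adjusted p was 0.0216, but it was 0.125 without all 3 trace libraries and ran from 0.0113 to 0.40 over 20 alternatives. For Cidec the value was 1.76 (SE 0.42, 95% interval 0.83 to 2.68, adjusted p = 0.325), for Mgll 0.74 (SE 0.17, adjusted p = 0.312), for Plin2 0.84 (SE 0.36, adjusted p = 0.544) and for Pnpla2 0.52 (SE 0.23, adjusted p = 0.544). At this threshold the effects in males are not shown to differ from those in females.

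**Figure D4:**
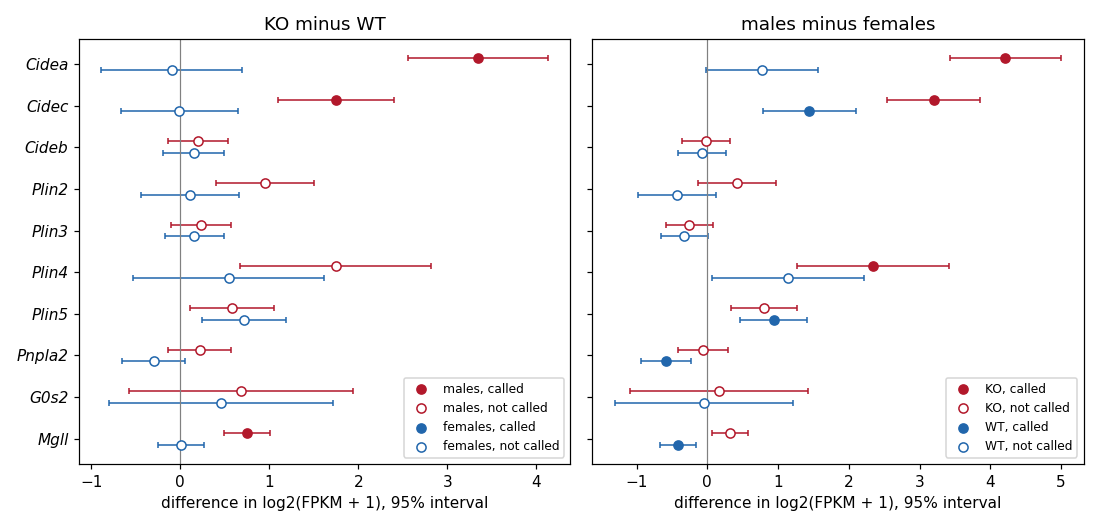
Differences in log2(FPKM + 1) of the 10 genes with their 95% intervals from limma. The left panel gives KO minus WT in males and females, the right panel males minus females in KO and WT, and filled points passed an adjusted p under 0.05. Cidea stands at 3.34 in males and -0.099 in females on the left, and Cidec is higher in males of both genotypes on the right.

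Males and females were then compared within each genotype, with the same libraries as above. Among KO livers 3 of the 10 genes were higher in males and 0 lower, against 1.67% and 2.01% of all tested genes. These were Cidea (log2 difference 4.21, SE 0.36, adjusted p = 8.12e-05), Cidec (3.20, SE 0.30, adjusted p = 0.000133) and Plin4 (2.34, SE 0.49, adjusted p = 0.0223). The calls of Cidea and Cidec held in all 21 alternatives. These include the filter at a mean of 5 FPKM, which Cidea, Cidec and Plin4 passed only through KO males. The Plin4 call was lost without KO female 2 (adjusted p = 0.0664) or KO female 3 (0.0905) and without the 3 trace libraries (0.0878). It was also lost without the filter on low values (0.0545) and with the KO groups alone in the model (0.112). KO male 1 carried much of the Plin4 difference, which was 1.65 without it. Plin5 was at 27.7 ± 3.16 FPKM in KO males and 15.4 ± 0.864 in KO females without passing (SD, n = 3 each, adjusted p = 0.0682), and passed without WT male 2 (0.0234) or WT female 3 (0.0367), with the KO groups alone in the model (0.0261) and without the length trend (0.0403). In 5 of the 10 genes KO males lay above KO females without overlap, against 10.1% of all tested genes, and 5 had an unadjusted p under 0.05, against 15.5%. Plin2 (log2 difference 0.42, adjusted p = 0.495), Mgll (0.32, adjusted p = 0.194) and the other genes were not called.

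In wild type, Cidec and Plin5 were higher in males, and Pnpla2 and Mgll were lower. The 4 genes called stand against 2.31% of all tested genes called higher and 11.1% called lower in WT males. An unadjusted p under 0.05 was reached by 5, against 32.8% of all tested genes. Without overlap, 3 were higher in WT males (Cidec, Plin4 and Plin5) and 3 lower (Plin3, Pnpla2 and Mgll), against 6.04% and 34.1% of all tested genes. Cidec averaged 4.34 ± 2.19 FPKM in WT males and 0.890 ± 0.381 in WT females (log2 difference 1.44, SE 0.30, adjusted p = 0.0105). It kept its call in all 21 alternatives, among them the filter at a mean of 5 FPKM that it passed only through KO males. Plin5 averaged 18.6 ± 5.68 in WT males and 9.26 ± 2.99 in WT females (log2 difference 0.94, SE 0.22, adjusted p = 0.0168), and lost its call without WT female 1 (0.0738), without WT female 2 (0.0751), without the trace libraries (0.116) and with the WT groups alone in the model (0.0523). Plin4 was at 2.60 to 4.08 in WT males and 0.58 to 1.24 in WT females (adjusted p = 0.133), and was called without KO male 1 (0.0290) and with the WT groups alone in the model (0.00989).

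Pnpla2 averaged 18.1 ± 2.86 FPKM in WT males and 27.3 ± 1.98 in WT females (log2 difference -0.58, SE 0.16, adjusted p = 0.0380; SD, n = 3 each). Mgll averaged 35.03 ± 3.83 in WT males and 47.1 ± 4.91 in WT females (log2 difference -0.42, SE 0.12, adjusted p = 0.0388). The median of all tested genes was itself 0.21 lower in WT males (log2 difference -0.21), and median-ratio scaling gave 618 genes higher and 456 lower in place of 266 and 1273. With it neither was called (Pnpla2 -0.29, adjusted p = 0.355; Mgll -0.12, adjusted p = 0.638). Without the length trend the values were -0.38 (0.137) for Pnpla2 and -0.17 (0.404) for Mgll. The Pnpla2 call was also lost without WT male 1 (0.0941), WT male 3 (0.0627), KO female 2 (0.0512), WT female 1 (0.103), WT female 2 (0.129) or WT female 3 (0.0661), without the trace libraries (0.135), with quantile normalization (0.116) and without the filter on low values (0.0518), and held in 10 of 21 alternatives. The Mgll call was lost without WT male 2 (0.0771), WT male 3 (0.110), KO female 1 (0.0556), KO female 2 (0.0547), KO female 3 (0.0582), WT female 1 (0.101) or WT female 2 (0.148), without the trace libraries (0.162), with quantile normalization (0.201), with the WT groups alone in the model (0.0903) and with the replicate number as a block (0.0545), and held in 8 of 21. Cidea was at 0.32 to 2.39 in WT males and 0 to 0.82 in WT females (log2 difference 0.77, adjusted p = 0.161). Over the 4 groups the order of mean Cidea was thus KO males, WT males, WT females and KO females, and neither WT males and WT females nor WT females and KO females differed by the test.

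The genes with the most similar pattern over the 12 libraries were found by the root mean square difference of centred log2(FPKM + 1), a description with no test. For Cidea these were Cidec (0.59), Plin4 (0.91), Phospho1 (0.97), Apoa4 (0.99) and Gprc5b (0.99), against a median of 1.78 over all tested genes. For Cidec they were Clstn3 (0.57), Cidea (0.59), Gprc5b (0.59), Phospho1 (0.62) and Chpt1 (0.64), against a median of 1.40. Each median largely reflects how much Cidea or Cidec itself varied, so it does not measure how close a match is. Phospho1, a phosphatase of phosphocholine and phosphoethanolamine, averaged 29.95 ± 7.59 FPKM in KO males and 9.58 ± 3.43 in WT males, and 6.75 ± 2.58 in KO females and 2.99 ± 1.13 in WT females (SD, n = 3 each). Clstn3, which encodes a calsyntenin, averaged 9.85 ± 1.17 in KO males and 6.69 ± 1.18 in WT males, and 1.45 ± 0.520 in KO females and 1.11 ± 0.474 in WT females.

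Other genes of the same processes were taken from lists, and none was called between KO and WT in either sex. In males 0 of 19 tested genes of droplet formation and coat were called by limma, and 5 had an unadjusted p under 0.05, against 23.9% of all tested genes (median log2 difference 0.16, against 0.19). The nearest was Hilpda, a hypoxia-induced droplet protein that inhibits Pnpla2, at 2.86 ± 0.903 FPKM in KO males and 1.04 ± 0.193 in WT males (adjusted p = 0.0537). Cav1, a protein of caveolae, was at 1.35 ± 0.326 against 2.72 ± 0.667 (adjusted p = 0.0889), and the small GTPase Rab18 at 49.7 ± 1.76 against 36.5 ± 8.27 (adjusted p = 0.114). Of 15 tested lipases and cofactors 0 were called and 6 had an unadjusted p under 0.05 (median 0.083), among them hepatic lipase Lipc at 54.7 ± 6.96 against 69.8 ± 3.50 (adjusted p = 0.113), the carboxylesterase Ces1g at 182 ± 32.9 against 134 ± 16.7 (0.107) and endothelial lipase Lipg at 4.15 ± 1.51 against 1.70 ± 0.650 (0.134). Abhd5, the coactivator of Pnpla2, stood at 9.14 ± 0.587 in KO males and 8.96 ± 1.44 in WT males. Of 14 regulators 0 were called, and 0 had an unadjusted p under 0.05 (median 0.057). Pparg, a nuclear receptor known to drive Cidec in fatty liver, stood at 16.7 ± 2.17 in KO males and 14.2 ± 3.56 in WT males, and Creb3l3, a liver transcription factor that acts on Cidec, at 102 ± 17.4 and 99.9 ± 6.80. The nearest regulators were Rxra, Hif1a and Nr1i3 (adjusted p = 0.213, 0.264 and 0.303).

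In females 0 genes of these lists were called by limma, and 1 of 19, 2 of 15 and 2 of 14 had an unadjusted p under 0.05, against 6.13% of all tested genes. Ppargc1b, a coactivator of oxidative metabolism, was at 0.520 ± 0.243 FPKM in KO females and 1.76 ± 0.740 in WT females (adjusted p = 0.445). Its relative Ppargc1a was at 2.12 ± 0.641 against 3.69 ± 0.318 (0.810). The fatty acid receptor Ppara was at 28.0 ± 9.42 against 51.2 ± 16.5 (0.796), and hormone-sensitive lipase Lipe at 3.44 ± 0.304 against 5.14 ± 0.828 (0.587). The carboxylesterase Ces1d was at 289 ± 5.85 against 403 ± 36.3 (0.748), and the droplet enzyme Pnpla3 at 1.77 ± 1.83 against 3.67 ± 1.17 (0.849). Of the droplet list, Hsd17b13 was at 363 ± 35.2 against 288 ± 26.2 (0.780), Hilpda at 1.79 ± 0.418 against 1.06 ± 0.609 (0.813) and Acsl3 at 11.2 ± 1.07 against 15.2 ± 1.56 (0.833).

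Between the sexes in KO, 2 of the 19 droplet genes were higher in males, 1 of the 15 lipases and cofactors lower and 0 of the 14 regulators called (1 at an unadjusted p under 0.05, against 15.5% of all tested genes), beside 1.67% of all tested genes higher and 2.01% lower. In WT 2 of 19 were higher, and 2 of 15 and 1 of 14 lower, beside 2.31% of all tested genes higher and 11.1% lower. Fitm1, an endoplasmic reticulum protein of droplet formation, was higher in males in both genotypes, at 62.0 ± 12.3 FPKM in KO males and 20.3 ± 7.01 in KO females (adjusted p = 0.0123), and at 50.1 ± 20.2 in WT males and 14.5 ± 3.25 in WT females (adjusted p = 0.00469). Ldah, a droplet hydrolase listed in the table as 1110057K04Rik, was higher in males in both genotypes as well (adjusted p = 0.0131 in KO and 0.0448 in WT), and Lipc was lower (adjusted p = 0.000115 in KO and 0.000270 in WT). In WT, Lipg was called lower in males, at 1.70 ± 0.650 in WT males and 5.55 ± 3.42 in WT females (adjusted p = 0.0387), and so was Ppargc1b, at 0.580 ± 0.195 in WT males and 1.76 ± 0.740 in WT females (0.0263). In KO neither was called (adjusted p = 0.890 for Lipg and 0.856 for Ppargc1b), and the test of the difference between the genotypes did not pass for either (log2 difference 1.03 for Lipg and 0.65 for Ppargc1b, adjusted p = 0.544 for both).

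Markers of other cell types were read beside these results, because in bulk tissue fewer cells of a type and less RNA per cell cannot be told apart. Hepatocyte markers summed to 48117 to 50966 FPKM in KO males and 60336 to 70003 in WT males, with 0 of 7 called by limma and 5 at an unadjusted p under 0.05, against 23.9% of all tested genes. Their median log2 difference was -0.34, against 0.19 over all tested genes. Alb averaged 33284 ± 2170 FPKM in KO males and 42195 ± 2322 in WT males. Apoa1, Ttr, Tat and Serpina1c were also lower in KO males (log2 differences -0.62, -0.22, -0.51 and -0.69). Apob (0.35) and the transcription factor Hnf4a were higher. Hnf4a averaged 142 ± 17.2 in KO males and 107 ± 21.2 in WT males (log2 difference 0.42, adjusted p = 0.133). Without the length trend 3 hepatocyte markers were called lower in KO males. With the filter at a mean of 5 FPKM, without KO male 3 and without the trace libraries it was 1 each. The fat cell list had 7 of 8 genes in the table and 4 tested, with 0 called in males by limma and 1, Fabp4, at an unadjusted p under 0.05. Without WT male 2, 1 of the 4 was called higher in KO males. Its summed level was 43.6 to 59.2 FPKM in KO males and 34.4 to 38.9 in WT males, and 28.5 to 34.6 in KO females and 30.8 to 36.5 in WT females. Adipoq was listed at 0 to 0.11 in KO males and at 0 in WT males, Plin1, the perilipin of fat cells, at 0 to 0.02 in KO males and at 0 in WT males, and Retn at 0.06 to 0.08 in KO males and 0 to 0.14 in WT males. Cfd (adipsin) was at 1.74 to 2.41 in KO males and 1.33 to 2.10 in WT males (adjusted p = 0.642), and it was called higher in males in KO (adjusted p = 0.00163) and in WT (0.00348). Most of the sum was Fabp4, at 24.4 ± 7.67 in KO males and 13.2 ± 6.66 in WT males (log2 difference 0.90, unadjusted p = 0.0126, adjusted p = 0.115), and Pde3b, at 18.8 ± 0.945 in KO males and 18.1 ± 5.99 in WT males. Lipe alone of the 4 tested genes went the other way, at 3.60 ± 0.396 in KO males and 4.23 ± 0.373 in WT males (log2 difference -0.18, adjusted p = 0.394). The sums of the brown fat list, with 4 of 5 genes in the table, 1 tested and 0 called by limma (0 at an unadjusted p under 0.05), were 104 to 211 in KO males and 195 to 279 in WT males. Nearly all of that was Elovl3, a fatty acid elongase, and Ucp1 and Cox8b were listed at 0 in all 6 male libraries. The part of fat cells in the levels of the 10 genes was not tested.

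Some macrophage, stellate and endothelial markers were called higher in KO males, where 2.13% of all tested genes were. Of 9 macrophage genes 5 rose (Vsig4, Cd5l, Timd4, Emr1 and Cd68), and their summed level was 270 to 630 FPKM in KO males and 133 to 238 in WT males, and 385 to 577 in KO females and 331 to 529 in WT females. Of 8 stellate genes 2 rose, Colec11 and Dcn (sums 161 to 242 in KO males and 112 to 128 in WT males), and of 7 sinusoidal endothelial genes 4 rose (sums 99.3 to 111 in KO males and 66.0 to 74.0 in WT males). Many of these calls were lost under other settings: 0 in any of the 3 lists remained with the male libraries alone in the model. With median-ratio scaling 1 macrophage, 0 stellate and 3 endothelial genes were called, with quantile normalization 1, 0 and 2, without the filter on low values 2, 0 and 2, with the replicate block 5, 0 and 1, and without the length trend 5, 0 and 3. Without WT male 1 the counts were 0, 0 and 2, without WT male 3 they were 0, 0 and 1, without KO male 2 they were 2, 0 and 1, and without the trace libraries 0, 0 and 2. Without KO male 1 they were 4, 0 and 1, without WT male 2 they were 4, 0 and 1, and without KO male 3 they were 6, 3 and 4. Leaving out a female library gave 3 to 5 macrophage, 0 to 1 stellate and 3 to 4 endothelial calls. Macrophages and stellate cells hold lipid droplets too, and the part of these cells in the levels of Plin2 or of the other 9 genes was not tested. In females 0 genes of these 3 lists were called by limma and 0 had an unadjusted p under 0.05. The endothelial sums were 118 to 126 in KO females and 116 to 132 in WT females, and the stellate sums 184 to 221 and 174 to 185. In WT, 6 of 9 macrophage, 4 of 8 stellate and 6 of 7 endothelial genes were called lower in males. Of all tested genes 11.1% were called lower there. In KO 0 genes of these lists were called between the sexes. Calls between the sexes under other settings are not given for these lists.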

How the data were processed

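Liver RNA was sequenced in 12 libraries, and 1 table of all genes was used. The deposited values are FPKM, per the file headers, rounded to 2 decimals. TopHat2 and build mm10 are named, without their roles, in the submitters' processing notes; the sources used here name no quantifier, annotation, strand setting or read total. The gene bounds of Cidea, Cideb, Plin4, G0s2 and Mgll overlap other GENCODE genes (release M21), so reads of the 2 strands may be mixed in their values. No value column was left out (0 columns). At most 0.318% of values of at least 5 FPKM were identical in any pair of libraries, and all were kept as separate samples. The labels do not say whether they came from separate animals, so the p-values cover only the spread among these samples, which may be technical.

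Tests used limma 3.58.1 (R 4.3.3) on log2(FPKM + 1) for genes that reached 1 FPKM in 3 or more libraries, with 1 mean per group over all 12 libraries, a variance trend, two-sided tests and Benjamini-Hochberg adjustment over the 11514 tested genes. Changes of low genes are understated on this scale. Fold changes divide mean FPKM. On simulated data for KO against WT males (11514 genes), the fit recovered 80% of 50 genes changed by 1 on the log2 scale and 100% of 50 changed by 2, with 8 false calls. Changed genes were drawn from those at about 5 FPKM or more in WT males, a floor above the Cidea, Cidec and Plin4 means there. Noise was independent between genes with no shift shared by a library, so these rates may not hold for the real libraries. Genes were named by rule: all 10 genes, list genes that were called or else those with the smallest p, Oxr1, and the 5 genes nearest in pattern to Cidea and Cidec. Pparg, Creb3l3, Abhd5 and the marker genes named fall outside it, picked once their values were known. The 10 genes and the lists were chosen with earlier results of these data known. Coordinates are those of RefSeq on GRCm38, matched for all 10 genes by Entrez number. Alternatives were a pseudocount of 0.1, quantile normalization, no filter, median-ratio scaling, a filter at a mean of 5 FPKM, a fit of only the groups compared, the replicate number as a block, removal of the trend on transcript length (known for 96.1% of tested genes), each library left out, and, chosen after seeing the data, no library with a trace (over 0.2 FPKM) of the other sex.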

Additional observations from a re-analysis of the deposited data

How the results depend on the processing

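Over 1040 values of the 10 genes under the alternatives, 939 kept their direction and their side of the threshold, 44 lost a call, 8 gained one and 49 changed sign; the values that changed sign were not called in any of these fits, and the cause was not tested. The number of the 10 genes called in males was 0 in the fit of only the male groups and 1 to 3 with a library left out. For the interaction it was 1 with the replicate block (Cidea, adjusted p = 0.0113) and 0 to 1 with a library left out. For males against females in wild type it was 2 with median-ratio scaling, with quantile normalization and without the length trend, 1 without the 3 trace libraries, and 1 to 5 with a library left out. Same-numbered libraries did not deviate together in every pair (correlations of -0.322 to 0.561), so the replicate numbers were not taken to pair the samples. Apart from Cidea in the interaction, the replicate block removed the Mgll call in wild-type males against females (0.0545) and changed no other call of the 10 genes. All tested genes called in males numbered 294 (245 higher, 49 lower), but 145 with median-ratio scaling (68 and 77) and 140 with quantile normalization (61 and 79). They were 174 of 18560 tested genes without the filter, 319 of 6610 at a mean of at least 5 FPKM and 378 with a pseudocount of 0.1. With the replicate block they were 132, without the trace libraries 125, in the male groups alone 3 and with a library left out 58 to 570. Without the length trend they were 264 (116 and 148). In wild-type males against females 1539 genes were called (266 higher, 1273 lower), 1074 with median-ratio scaling (618 and 456) and 1085 with quantile normalization (586 and 499). They were 1487 without the length trend (821 and 666) and 904 of 6610 tested genes at a mean of at least 5 FPKM. Without the trace libraries they were 525 (141 and 384), and with a library left out 675 to 2081. In knockout they numbered 423 (192 and 231), 427 with median-ratio scaling (234 and 193), 700 without the length trend, 216 in the 2 groups alone, 123 without the trace libraries (59 and 64) and 201 to 637 with a library left out. In females 2 genes were called, 0 to 12 with a library left out, and for the interaction 3, against 1 to 22.

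Sign changes with median-ratio scaling were -0.044 for Cideb and -0.019 for Pnpla2 in males, -0.221 for Cideb, -0.180 for Plin3 and -0.047 for G0s2 in the interaction, 0.233 for Cideb and 0.249 for G0s2 in wild-type males against females, and 0.012 for Cideb in knockout. With quantile normalization they were 0.043 for Cidec and -0.039 for Mgll in females, -0.128 for Plin3 in the interaction and 0.030 for Cideb in knockout males against females. Without the length trend they were -0.165 for Plin3 in the interaction, 0.041 for Cideb and 0.023 for G0s2 in wild-type males against females, and 0.055 for Cideb in knockout. Without the trace libraries they were -0.312 for Plin2 and -0.023 for Mgll in females, -0.120 for Cideb and 0.081 for Plin5 in the interaction, and -0.220 for G0s2 and 0.061 for Pnpla2 in knockout males against females. With a library left out, values in females ran from -0.338 to 0.154 for Cidea, -0.196 to 0.148 for Cidec, -0.170 to 0.319 for Plin2 and -0.058 to 0.087 for Mgll. In the interaction they ran from -0.111 to 0.182 for Cideb, -0.057 to 0.172 for Plin3, -0.364 to 0.090 for Plin5 and -0.292 to 0.821 for G0s2. In wild-type males against females they ran from -0.204 to 0.089 for Cideb and -0.558 to 0.461 for G0s2, and in knockout from -0.114 to 0.072 for Cideb, -0.285 to 0.768 for G0s2 and -0.221 to 0.052 for Pnpla2.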
